A study of Mus musculus with 6 samples.

Results

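Small nucleolar RNA (snoRNA) and small Cajal body RNA (scaRNA) genes were examined in the livers of Gpr146 knockout (KO) and wild-type (WT) mice. Members were the rows whose platform annotation gave 1 gene symbol starting with Snord, Snora or Scarna and whose mean log2 signal over the 6 arrays was at least 3.0, with the probe set of highest mean kept for each gene. This gave 72 genes of 11031 genes tested at that signal, namely 44 Snord, 24 Snora and 4 Scarna genes. Of 78 such genes measured, 6 lay below the minimum; Snord90, at a mean of 2.98, and Snord19, at 2.56, were the nearest outside, and Snora41, at 3.07, and Snord88a, at 3.40, the nearest inside. A further 46 probe sets carried a snoRNA or scaRNA symbol together with another symbol and were not used. Members were thus selected on the mean signal of all 6 mice, so the levels below are a description. The rule did not use the KO against WT difference, but it was chosen with earlier results of these data known.

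Both groups were male littermates on a C57BL/6J background, 24 weeks old and fed chow. They were fasted for 16 hours and given food again for 6 hours before liver was taken. The 3 WT mice carried intact Gpr146, which encodes a G protein-coupled receptor, and the 3 KO mice lacked it in the whole body, so effects within hepatocytes and from other organs cannot be told apart. Each mouse gave 1 array, from 100 ng of total RNA extracted with Trizol. Values by mouse are given in the order of mice 1 to 3 of each group. Gpr146 signals were 5.96, 5.56 and 5.65 in the WT livers and 4.61, 4.28 and 3.87 in the KO livers, every KO mouse below every WT mouse (-1.47 ± 0.19, SE; limma adjusted p = 0.0716). Which part of the gene was deleted is not stated in the labels, so whether its probes lie there was not checked. The 8 hepatocyte markers measured, Alb among them, had a summed log2 signal of 14.16 to 14.20 in WT and 14.18 to 14.22 in KO. In whole liver, fewer cells of a type and less RNA per cell cannot be told apart.

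Box C/D snoRNAs, named Snord in the mouse, guide ribose methylation of ribosomal RNA, and box H/ACA snoRNAs, named Snora, guide the conversion of uridine to pseudouridine; a few members of each class are needed for cleavage of the rRNA precursor instead. ScaRNAs guide the same changes on the small nuclear RNAs of the spliceosome, in Cajal bodies. Most mammalian snoRNAs are cut out of introns of host genes, often genes for ribosomal proteins, translation factors or non-coding hosts of the Snhg family, while some, such as Snord118 (U8) and Snord13 (U13), have promoters of their own. A probe set inside an intron does not separate mature snoRNA from intron that has not yet been removed.

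By position in the RefSeq gene table, 62 members lay inside exactly 1 gene, 6 inside several overlapping genes and 4 inside none. The last were Snord118, Snord13, Snord89 and Scarna2. The 62 members shared 49 host genes; 46 lay in protein-coding genes, 18 of the 62 in ribosomal protein genes, and 16 in long non-coding genes. The hosts with the most members were Snhg12, with Snord99, Snora16a, Snora44 and Snora61, and 2410006H16Rik, with Snord49a, Snord49b and Snord65, while Snhg3 held Snora73a and Snora73b. The promoters of these 3 hosts are shown because members of a host share them. The sequences are RefSeq's on GRCm38.p6, from 250 bases before to 50 bases after the start site, 5′ to 3′ on the gene's strand: Snhg3 at chr4:132353637-132353936 on the minus strand, Snhg12 at chr4:132308428-132308727 and 2410006H16Rik at chr11:62602627-62602926 on the plus strand. Capitals mark CTTTCTC, a pyrimidine run of the kind found at the starts of many translation-related transcripts, chosen after these windows were read.
Snhg3: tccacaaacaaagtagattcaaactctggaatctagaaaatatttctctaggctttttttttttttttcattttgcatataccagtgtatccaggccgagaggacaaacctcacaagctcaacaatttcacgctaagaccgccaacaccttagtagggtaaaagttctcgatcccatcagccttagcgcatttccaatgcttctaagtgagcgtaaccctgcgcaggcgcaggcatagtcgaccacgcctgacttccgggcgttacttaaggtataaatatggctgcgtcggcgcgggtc
Snhg12: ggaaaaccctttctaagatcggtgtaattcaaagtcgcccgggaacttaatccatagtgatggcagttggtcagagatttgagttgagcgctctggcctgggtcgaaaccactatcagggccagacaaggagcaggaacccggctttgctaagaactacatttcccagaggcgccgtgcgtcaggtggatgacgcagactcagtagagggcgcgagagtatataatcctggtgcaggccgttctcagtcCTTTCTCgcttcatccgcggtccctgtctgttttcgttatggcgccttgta
2410006H16Rik: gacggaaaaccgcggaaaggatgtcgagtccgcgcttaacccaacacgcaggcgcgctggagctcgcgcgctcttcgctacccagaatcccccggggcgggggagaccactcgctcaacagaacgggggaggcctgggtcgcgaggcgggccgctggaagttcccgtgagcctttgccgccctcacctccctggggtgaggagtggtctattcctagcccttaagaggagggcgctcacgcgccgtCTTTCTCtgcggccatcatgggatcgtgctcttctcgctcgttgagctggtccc
The run began at position -1 from the start site in Snhg12 and at -4 in 2410006H16Rik, and neither it nor its reverse complement GAGAAAG was found in the Snhg3 window. On either strand these letters were in 9.57% of 32851 promoter windows of the same length, and in 6 of 41 windows of the hosts. On the gene's strand, from 10 bases before to 20 after the start site, they were in 0.42% of all windows and 2 host windows. Those 2 are the Snhg12 and 2410006H16Rik windows from which the run was chosen, so their count carries no test. A promoter window was found for 38 of the 49 hosts.

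Signals spanned most of the array's range. Snord genes ran from 3.40 to 11.01 with a median of 7.62, Snora genes from 3.07 to 11.03 with a median of 6.43 and Scarna genes from 6.21 to 8.49, against a median of 5.01 for all genes tested. Signals of different probe sets depend on their probes as well as on RNA amount, so these ranges do not rank the RNAs themselves. The 5 Snord genes of highest signal were Snord13, Snord104, Snord55, Snord16a and Snord99, with means from 10.20 to 11.01. The highest Snora genes were Snora33, Snora16a, Snora44, Snora62 and Snora21, from 8.16 to 11.03. Snora33 had another probe set at 3.42, so its level depends on which was used, whereas the pair of Scarna17 probe sets lay at 8.03 and 8.49.

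Most box C/D genes were slightly higher in KO livers, but 0 of the 72 members passed the test across all genes. The test was limma on log2 signals with Benjamini-Hochberg adjustment over all 11031 genes, in which 4 genes, or 0.0363%, passed an adjusted p of 0.05. The smallest adjusted p among the members was 0.300, for Snord73a. At an unadjusted p under 0.05, 16 members were higher, where 6.16% of all genes were, and 1, Snora31, was lower, where 2.98% of all genes were. The 16 are 22.2% of the members.

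The median KO minus WT difference, on the log2 scale, was 0.17 over the members, which is 1.12-fold, against 0.028 over all genes tested. It was 0.20 for the Snord genes, 0.06 for the Snora genes and 0.16 for the Scarna genes. A positive difference was found in 41 of 44 Snord, 14 of 24 Snora and 4 of 4 Scarna genes, against 57.8% of all genes tested. The exceptions among Snord genes were Snord23 at -0.20, Snord88c at -0.033 and Snord123 at -0.0055. Snord genes above and below their median signal gave nearly the same median difference, 0.20 in each case. Other genes at or above the members' median signal had a median difference of 0.024.

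**Figure D1:**
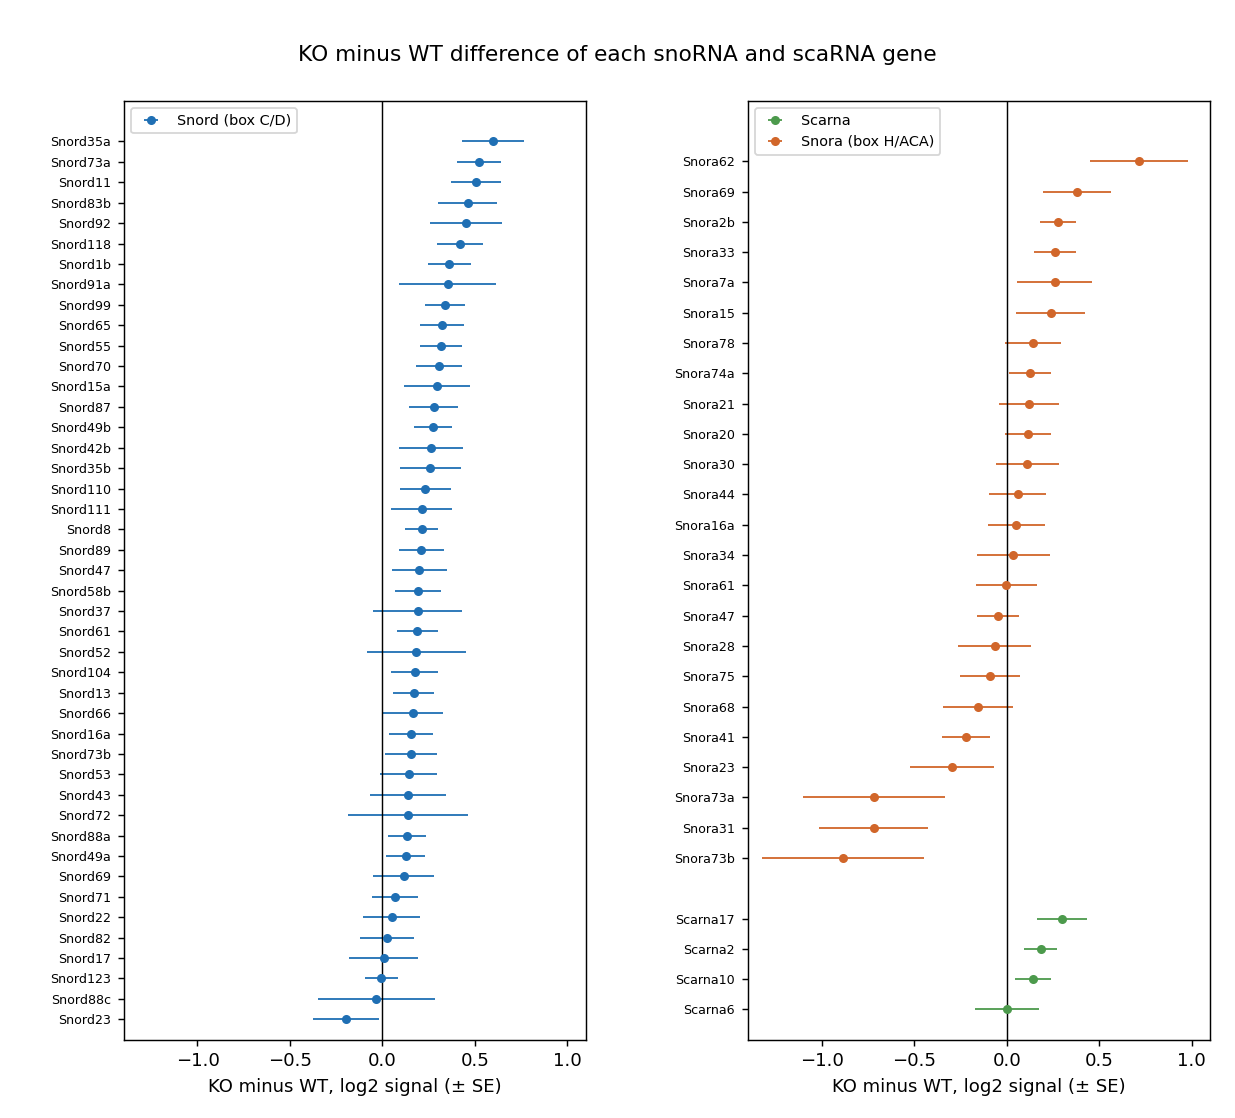
KO minus WT difference of each of the 72 genes on the log2 scale (horizontal axis), with limma's SE as bars; blue are Snord, orange Snora and green Scarna genes. Of the Snord genes 41 of 44 lie right of 0, and the Snora genes spread from -0.88 for Snora73b to 0.72 for Snora62.

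The groups did not overlap in 15 members, all with every KO mouse above every WT mouse, where 9.66% of all genes tested did so. They were 12 Snord genes, 2 Snora genes and Scarna2, or 20.8% of the members. In 0 members was every KO mouse below every WT mouse, where 5.18% of all genes were. Members share the same 6 livers, so they are not independent of each other, and their counts carry no test.

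Snord73a, a box C/D gene inside the ribosomal protein gene Rps3a1, had the smallest p. Its signals were 6.74, 6.56 and 6.61 in the WT livers and 7.05, 7.39 and 7.04 in the KO livers, without overlap. The difference was 0.52 ± 0.12 (SE), 1.44-fold, with a limma adjusted p of 0.300 and a two-sided exact permutation test gave 0.1, the lowest p possible with 3 mice a group. Its neighbour Snord73b, in the same host, overlapped between the groups at 0.15 ± 0.14. Members with closely related names, such as these or Snord49a and Snord49b, can be near copies, and how far their probe sets share signal was not tested.

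Snord11 and Snord70 both lie in Nop58, which encodes a core protein of box C/D particles. Snord11 was at 7.58, 7.44 and 7.34 in the WT livers and 7.95, 8.20 and 7.73 in the KO livers, again without overlap. The difference was 0.51 ± 0.13 (SE; limma adjusted p = 0.345). Snord70, named after its values were seen, was at 0.31 ± 0.12 with overlapping groups. Nop58 itself went the other way, at -0.27 ± 0.16 (limma adjusted p = 0.632), with WT values of 5.93, 6.14 and 5.91 and KO values of 5.35, 5.89 and 5.91.

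Snord35a, from the ribosomal protein gene Rpl13a, had the largest Snord difference, 0.60 ± 0.17 (SE; limma adjusted p = 0.356). Its signals were 9.18, 8.91 and 8.65 in the WT livers and 9.65, 9.68 and 9.21 in the KO livers. KO mouse 3 lay only just above WT mouse 1. Snord118, or U8, which is needed for maturation of the large subunit rRNAs, was at 4.49, 4.25 and 4.24 in WT and 4.53, 4.84 and 4.86 in KO. The difference was 0.42 ± 0.12 (SE; limma adjusted p = 0.372), and here it was KO mouse 1 that came close to WT mouse 1.

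The other Snord genes without overlap that the naming rule took were Snord99, Snord1b, Snord83b, Snord55 and Snord65, at differences of 0.32 to 0.46 with limma adjusted p-values of 0.403 to 0.476. Snord99 was at 10.12, 10.05 and 9.91 in the WT livers and 10.44, 10.46 and 10.21 in the KO livers. Snord55 was at 10.41, 10.30 and 10.26 against 10.62, 10.83 and 10.47. Both are among the brightest members, and in each the lowest KO mouse, number 3, lay only a little above the highest WT mouse, number 1. Snord49b at 0.28, Snord8 at 0.21 and Snord92 at 0.45 were separated too, the last of them near the signal minimum. Snord13, the brightest Snord gene, overlapped, with 10.98, 10.84 and 10.94 in WT against 10.94, 11.28 and 11.06 in KO, a difference of 0.17 ± 0.11.

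**Figure D2:**
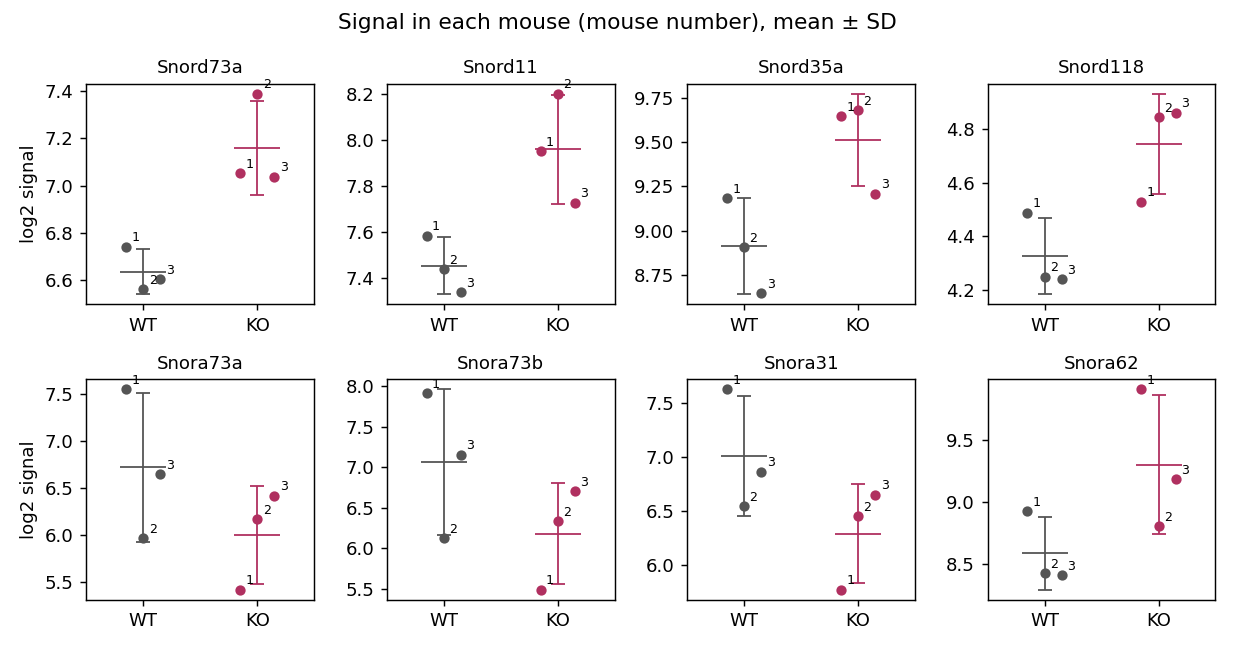
Log2 signal of 8 genes in each mouse (points, with the mouse number), with group mean and SD as bars; each panel has its own vertical axis, which does not start at 0. In the upper row KO and WT do not overlap. In the lower row Snora73a, Snora73b and Snora31 are highest in WT mouse 1 and lowest in KO mouse 1, and Snora62 is highest in KO mouse 1.

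Among the scaRNA genes the groups were separated in Scarna2, at 6.14, 6.06 and 6.16 in the WT livers and 6.36, 6.30 and 6.25 in the KO livers, a difference of 0.18 ± 0.088 (SE; limma adjusted p = 0.577). Scarna17 was at 0.30 ± 0.13 and Scarna10 at 0.14 ± 0.098, both with overlap. Scarna6 was at 0.0024 ± 0.17, which turned to -0.025 after quantile normalization and -0.038 after median centring.

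Box H/ACA genes were more mixed, and they held the largest differences in both directions. The widest spread was that of Snora73a and Snora73b, near copies of the RNA also called U17 that acts in rRNA precursor cleavage; both lie in Snhg3, and cross-hybridisation between them cannot be told apart from shared levels. Snora73b was at 7.91, 6.12 and 7.15 in the WT livers and 5.49, 6.33 and 6.70 in the KO livers. Snora73a was at 7.55, 5.97 and 6.65 in WT and 5.42, 6.17 and 6.42 in KO. WT mouse 1 was highest and KO mouse 1 lowest in both, and the other 4 mice overlapped. The differences were -0.88 ± 0.44 and -0.72 ± 0.38 (SE; limma adjusted p = 0.591 and 0.608). They shrank to -0.46 and -0.30 without WT mouse 1, and to -0.54 and -0.43 without KO mouse 1. Leaving out WT mouse 2, the lowest WT mouse in both, enlarged them to -1.35 and -1.09. The host Snhg3 was between 3.45 and 3.74 in the 6 mice, with a difference of -0.025 ± 0.11 that turned to 0.049 when WT mouse 2 was left out and to 0.034 when KO mouse 2 was.

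Snora31, in the gene Tpt1, also had WT mouse 1 highest and KO mouse 1 lowest, and was named after its values were seen. Its signals were 7.63, 6.55 and 6.86 in the WT livers and 5.78, 6.45 and 6.65 in the KO livers, so WT mouse 2 fell within the KO range. The difference was -0.72 ± 0.30 (SE; limma adjusted p = 0.514), which became -0.41 when WT mouse 1 was left out and -0.46 when KO mouse 1 was. Snora23, in Ipo7 and also named after its values were seen, stood out in WT mouse 1 alone, at 8.73 against 7.78 to 7.86 in the other 5 mice. Its difference of -0.30 was 0.011 without WT mouse 1.

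Snora62, in the ribosomal protein gene Rpsa, had the largest positive difference of any member. It was at 8.93, 8.42 and 8.41 in the WT livers and 9.91, 8.81 and 9.18 in the KO livers. The difference was 0.72 ± 0.26 (SE; limma adjusted p = 0.467), with overlap because WT mouse 1 lay above KO mouse 2, and it was 0.41 without KO mouse 1. Rpsa was at -0.027 ± 0.15, or 0.12 without KO mouse 1 and 0.067 without WT mouse 3. The Snora genes without overlap were Snora2b, at 3.72 to 3.82 in WT and 3.93 to 4.16 in KO, and Snora33, at 10.76 to 10.99 in WT and 10.99 to 11.27 in KO, where KO mouse 3 and WT mouse 2 nearly coincided. Their differences were 0.28 ± 0.097 and 0.26 ± 0.11 (SE; limma adjusted p = 0.440 and 0.533). That of Snora33 rests on its brighter probe set: the other was at 3.50, 3.27 and 3.55 in WT against 3.07, 3.65 and 3.48 in KO, and the mean of both gave 0.11 (limma adjusted p = 0.792).

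WT mouse 1 stood apart in other small RNAs measured beside the members. Rny1 and Rny3, the Y RNAs that bind the Ro protein, were at 4.51 and 3.58 there, against 7.15 to 7.86 and 6.22 to 6.82 in the other 5 mice. The summed log2 signal of the 3 pancreatic acinar markers measured was 4.97 to 6.41 in WT and 4.62 to 5.03 in KO, the highest again in WT mouse 1. Their part in the H/ACA pattern was not tested; the values without this mouse are given above. Over all 10 other small structured RNAs on the list, the summed log2 signal was 12.34 to 12.51 in WT and 12.44 to 12.59 in KO. That sum is set mostly by the brightest of them, at a mean of 11.90, so it says little of fainter ones such as Rny1 and Rny3. Rnu3a, a gene for the U3 box C/D RNA outside the rule because of its symbol, overlapped at 4.81, 3.72 and 4.002 in WT and 3.61, 4.50 and 4.76 in KO. Rny3 and Rnu3a were named after their values were seen.

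Viewed mouse by mouse, the Snord shift was uneven. The median deviation of the Snord genes from their 6-mouse means was -0.037, -0.23 and -0.024 in the WT livers and -0.050, 0.26 and 0.099 in the KO livers. KO mouse 2 was therefore high and WT mouse 2 low, while KO mouse 1 lay level with WT mice 1 and 3. KO mouse 2 held the highest value of 27 of the 44 Snord genes and the lowest of 0, and WT mice 2 and 3 held the lowest of 18 and 16. The corresponding deviations over all genes tested stayed between -0.050 and 0.040. Leaving out KO mouse 2 brought the median of all members from 0.17 to 0.096, with 49 positive (68.1%, against 57.3% of all genes in that fit) and 6 at an unadjusted p under 0.05 (8.33%, against 7.67%). Leaving out KO mouse 1 raised it to 0.27. Without WT mouse 2 and KO mouse 2 together, an alternative chosen after seeing the data, it was 0.037, below the 0.047 of all genes tested. In that fit 41 of the 72 members were positive, or 56.9%, against 60.9% of all genes, and the Snord median was 0.095 with 31 of 44 positive.

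**Figure D3:**
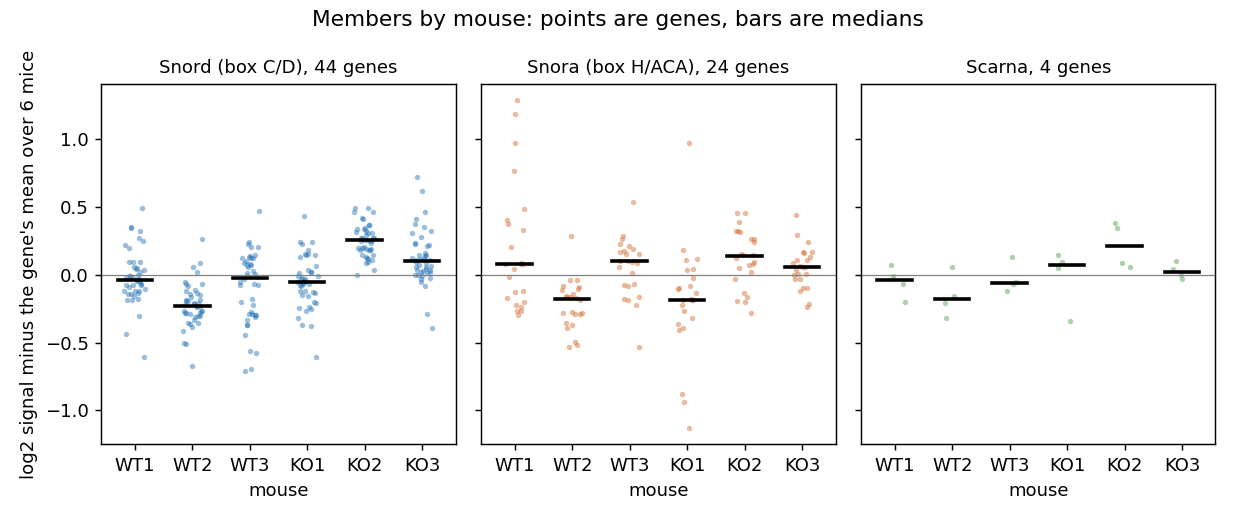
Log2 signal minus the gene's mean over the 6 mice (vertical axis) for each Snord, Snora and Scarna gene (points) in each mouse (horizontal axis), with black bars at the median. Snord medians are lowest in WT mouse 2, at -0.23, and highest in KO mouse 2, at 0.26.

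The classes moved together across mice but not to the same extent. Snora deviations had medians of 0.081, -0.18 and 0.099 in the WT livers and -0.18, 0.14 and 0.056 in the KO livers, also low in WT mouse 2 and high in KO mouse 2. Subtracting them mouse by mouse from the Snord medians left -0.12, -0.050 and -0.12 in WT and 0.13, 0.12 and 0.043 in KO, so that the C/D genes were higher relative to the H/ACA genes in each KO mouse than in any WT mouse. The difference between the class medians of the KO minus WT values was 0.14 and ranged from 0.11 to 0.19 with each mouse left out. No p is given, because it is a summary over genes chosen with earlier results known. Leaving out WT mouse 2 turned the Snora median to -0.032, and leaving out KO mouse 2 to -0.033.

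Members varied more between mice than other genes of like signal. The pooled SD within groups had a median of 0.20 for Snord and 0.26 for Snora genes, against 0.14 for all genes tested and 0.11 for other genes at or above the members' median signal. Set beside the other genes within 0.5 log2 units of its mean, a member had a larger SD than most of them in 66 of 72 cases, with a median percentile of 89.5. The largest were Snora73b at 0.77, Snora73a at 0.67 and Snord72 at 0.56. Snord72, in the ribosomal protein gene Rpl37, was at 5.66, 5.34 and 6.31 in the WT livers and 5.24, 6.03 and 6.45 in the KO livers, a difference of 0.14 ± 0.32 that turned to -0.081 when WT mouse 2 was left out and to -0.14 when KO mouse 3 was.

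The host genes had a median difference near 0. For 48 members the host had a value above the signal minimum, from 35 hosts, whose median difference was -0.020, with 16 positive and 19 negative, against 0.14 for their members. In 21 pairs the member was positive and the host negative, and in 3 the reverse. Both were positive in 16 pairs and both negative in 8, so 24 of the 48 had the same sign. Across these 48 members Pearson's r between the difference of the member and that of its host was -0.067 and Spearman's rho -0.11; members of 1 host share its value, and all come from the same arrays. Member and host were measured by different probe sets, so only their differences are set side by side.

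**Figure D4:**
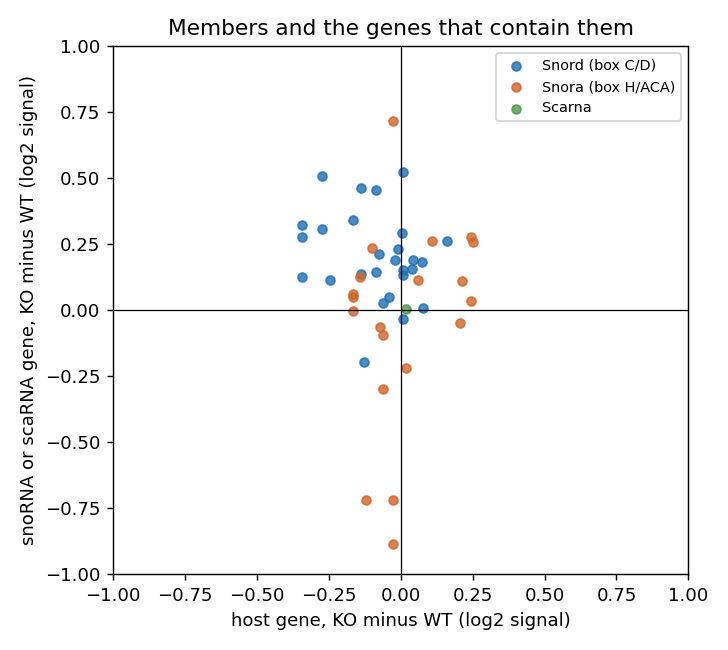
KO minus WT difference of 48 members (vertical axis) against that of the gene that contains each (horizontal axis), both on the log2 scale; blue are Snord, orange Snora and green Scarna genes. Most Snord points lie above 0 while the hosts fall on both sides of 0, with Pearson's r at -0.067.

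Members of a single host had unequal differences, which were not tested against each other. In Snhg12 the C/D gene Snord99 was at 0.34 ± 0.11 (SE), whereas the H/ACA genes Snora16a, Snora44 and Snora61 were at 0.051, 0.059 and -0.0030. The host itself was near the signal minimum, with a difference of -0.17 ± 0.14. Relative to the mean of these H/ACA genes, Snord99 lay at -0.12, 0.021 and -0.35 in the WT livers and 0.44, 0.097 and -0.077 in the KO livers around its mean over the 6 mice, so KO mouse 3 overlapped with WT. The Snora16a difference turned to -0.073 when WT mouse 2 was left out and to -0.068 when KO mouse 2 was, that of Snora44 -0.058 without WT mouse 1, and that of Snora61 0.18 in the same fit and 0.089 with KO mouse 1 left out. In Ncl, the other host with both classes, Snord82 was at 0.026 ± 0.15 and Snora75 at -0.093 ± 0.16 (SE). Relative to Snora75, Snord82 lay at -0.48, -0.12 and 0.42 in the WT livers and -0.32, 0.22 and 0.28 in the KO livers. These values, around their mean over the 6 mice, overlapped between the groups.

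In 2410006H16Rik all members are C/D genes, and Snord65 and Snord49b differed by 0.32 ± 0.12 and 0.28 ± 0.10 (SE) while Snord49a was at 0.13 ± 0.10. Snord65 was at 7.28, 7.21 and 6.99 in the WT livers and 7.45, 7.66 and 7.34 in the KO livers. Their host lay in the opposite direction, at -0.34 ± 0.13 (limma adjusted p = 0.481). The 18 members in ribosomal protein genes had a median difference of 0.26, 17 of them positive. The 26 large-subunit ribosomal protein genes tested (Rpl and Rplp symbols) had a median of 0.074, 21 of them positive. Small-subunit genes (Rps symbols and Rpsa) were left out of that list, although some of the 18 members lie in them. The 2 medians therefore cover unlike sets of genes. Of those large-subunit genes Rpl29 and Rpl32 had the smallest p, at 0.28 ± 0.11 and 0.25 ± 0.092 (SE; limma adjusted p = 0.499 and 0.454). The mean of its probe sets put Rpl29 at 0.097 (limma adjusted p = 0.832).

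The proteins that build and trim these RNAs gave 0 genes past the threshold in limma. Of the C/D core genes Nop56, Nop58 and Snu13 the differences ran from -0.27 to 0.076 with a median of -0.0080, and of the H/ACA core genes Dkc1, Gar1, Nhp2 and Nop10 from -0.16 to 0.16 with a median of 0.025. The 11 assembly factors tested had a median of 0.0012; Shq1, a chaperone of dyskerin in H/ACA assembly, was at 3.39, 3.75 and 3.49 in WT and 4.01, 3.78 and 4.18 in KO, a difference of 0.45 ± 0.14 (SE; limma adjusted p = 0.388). The 10 genes of 3′ end processing and decay had a median of 0.033, the 3 Cajal body genes 0.15, the 4 splicing factors 0.080 and the 16 genes of rRNA transcription and modification 0.027. At an unadjusted p under 0.05, 1 assembly factor and 1 processing gene were higher and 0 genes of these lists were lower, where 6.16% of all genes were higher and 2.98% lower.

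Among 12 non-coding host genes tested the median was -0.033. Snhg20 had the smallest p, at 5.07, 5.11 and 5.37 in the WT livers and 5.61, 5.67 and 5.51 in the KO livers, a difference of 0.42 ± 0.11 (SE; limma adjusted p = 0.345). The 109 microRNA genes tested had a median of 0.023, with 13 higher, or 11.9%, and 4 lower at an unadjusted p under 0.05, to be read against the same shares of all genes. Of these, Mir122 and Mir107 had the smallest p, at 2.17 ± 0.42 and 1.17 ± 0.24 (SE), with limma adjusted p-values of 0.244 and 0.275. In both, every KO mouse lay above every WT mouse. The 9 other small structured RNAs tested had a median of 0.11, with 8 positive, 0 of them past an unadjusted p of 0.05.

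Markers of other liver cells were measured beside the members. Summed log2 signals were 8.01 to 8.93 in WT and 8.19 to 8.83 in KO for 6 Kupffer cell markers, 8.65 to 8.90 and 8.67 to 8.84 for 6 sinusoidal endothelial markers, and 8.57 to 8.96 and 8.59 to 8.85 for 6 stellate markers. For 4 bile duct markers they were 5.99 to 6.33 in WT and 6.35 to 6.59 in KO, without overlap. Only 2 of the 4 reached the signal minimum; Sox9 was separated, at 5.38 to 5.80 in WT and 5.85 to 6.19 in KO, and Krt7 overlapped. Those of T and NK, B and plasma, and neutrophil and monocyte markers stayed below 5 in every mouse. The part of these cell types in the snoRNA differences was not tested.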

How the data were processed

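The authors deposited log2 signals, 1 per probe set and mouse, for 41345 probe sets of a whole-transcript Affymetrix array, per the labels' protocols; their summary and normalization steps: not given in the sources used here. Log2 was inferred from the range of the values. All 6 columns were matched to a mouse and 0 were left over; array medians were 2.67 to 2.73 and arrays correlated at 0.983 to 0.988. Each array shows 1 mouse, so 3 mice a group limit the precision.

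Probe sets with 1 symbol in GEO's platform annotation (23521; 1814 had several and 16010 none) were used, and 23328 matched the GRCm38.p6 RefSeq gene table by Entrez number, which updated symbols and placed members inside host genes. That table has no strand, so a host was named only where exactly 1 gene contained the member. The highest-mean probe set per gene left 22180 genes, of which 11031 reached a mean of 3.0.

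KO and WT were compared by a two-sided moderated test without covariates (limma 3.58.1, run under R 4.3.3, functions lmFit and eBayes), checked on simulated data, at an adjusted p of 0.05 over all genes tested. Single values also got an exact permutation test. Same-numbered KO and WT mice did not deviate together (correlations of 0.055, -0.187 and 0.147), so mice were not paired. Members, gene lists and tests were chosen with earlier results of these data known.

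The naming rule took Gpr146; members past the threshold; up to 10 members per direction without overlap, by p; the 5 of highest signal in each class; the 3 of largest SD; the 2 nearest on each side of the minimum; hosts, and members of hosts with 3 or more; the core protein genes; and 2 genes per list. Of these, genes near 0, marker genes and some host and list genes are given only by range or through a median. Snora31, Snora23, Snord70, Snord73b, Snord8, Snord92, Snord23, Snord88c, Snord123, Snord82, Snora75, Rny3 and Rnu3a were chosen after their values were seen. Erythroid markers, and some genes such as Fbl, Gas5 and Rpl13a, had no single-gene probe set and were not analysed here. Alternatives covered the filter, probe sets, normalization, pseudocount, limma options, the replicate block and each mouse left out.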

Additional observations from a re-analysis of the deposited data

How the results depend on the processing

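No member tested passed limma's adjusted threshold in any of the 16 alternatives (56 of the 72 were tested in the upper 25% of signal), where adjusted p-values of members were 0.212 or more. The medians of all members and of the Snord genes stayed positive in each. Without WT mouse 2 and KO mouse 2, however, the median of all members was 0.037, below the 0.047 of all genes tested. The number of genes passing over the whole table, 4, became 0 in the upper 25% of signal, 2 after median centring, 1 with a pseudocount of 8, 1 with the replicate block, and 1 to 51 with 1 mouse left out (51 without WT mouse 3, 11 higher and 40 lower). Without WT mouse 2 and KO mouse 2 it was 1.

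The Snora median, 0.055 with all mice, ran from -0.033 to 0.16 with 1 mouse left out and was -0.12 without WT mouse 2 and KO mouse 2; the gap between the Snord and Snora medians, 0.14, ran from 0.11 to 0.19 and was 0.21 there. The replicate block changed no call of a member. The Snord median of 0.20 in that paired fit equals the main one by design, because every replicate number holds a KO and a WT mouse. Gpr146 passed with trend and robust options (adjusted p = 0.0277) and without WT mouse 3 (0.0274).

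Differences of named genes that changed sign were as follows; the cause was not tested. With quantile normalization and median centring Scarna6 was at -0.025 and -0.038; with array weights Snora61 was at 0.031 and Snord88c at 0.078. With 1 mouse left out the ranges were -0.17 to 0.17 for Scarna6, -0.12 to 0.18 for Snora61, -0.073 to 0.18 for Snora16a, -0.058 to 0.21 for Snora44, -0.0063 to 0.26 for Snora21, -0.45 to 0.011 for Snora23, -0.39 to 0.20 for Snord88c, -0.051 to 0.036 for Snord123, -0.14 to 0.47 for Snord72, -0.078 to 0.049 for Snhg3, -0.13 to 0.12 for Rpsa, -0.28 to 1.34 for Rny3 and -0.12 to 0.46 for Rnu3a. Without WT mouse 2 and KO mouse 2, Snord104 was at -0.014, Snord16a at -0.018 (0.22 at most with 1 mouse left out), Snora16a at -0.19, Snora44 at -0.028, Snora21 at -0.12, Scarna6 at -0.27, Snord72 at -0.14, Snhg3 at 0.11, Rnu3a at -0.22 and Snord123 at 0.037. With 3 mice a group, the median SE of a member's difference was 0.15.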
